A study of Caenorhabditis elegans with 2 samples.

Results

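A group of 7 worm genes with work in nerve cells, sensory cilia, enzyme metabolism or larval timing carried strong promoter peaks of the tagged protein F16B12.6 in first-stage larvae. These 7 members are snb-1, unc-18, dyf-2, dyf-3, nlp-4, gst-43 and lin-46, out of 19973 protein-coding genes on the nuclear chromosomes. They were chosen on the signal values of their promoter peaks, with no numeric threshold, so those values are given as a description with no test. Chromatin immunoprecipitation followed by sequencing (ChIP-seq) recovered DNA with eGFP-F16B12.6, a fusion of the worm protein and a green fluorescent protein; the antibody field of the labels gives only F16B12.6. Both libraries came from whole L1 larvae of Caenorhabditis elegans, with both sexes pooled and the age given as unknown. The strain was OP114, with the genotype unc-119(tm4063) III and the transgene array wgIs114, which therefore applies to every value below. The 2 biological replicates form 1 group, with no second genotype, stage or treatment, and the labels give each its own biosample of the same strain stock. The labels do not say which promoter or which cells express the fusion, and whole larvae cannot tell strong binding in few cells from weak binding in many.

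As background, chemical synapses release transmitter when vesicle and plasma membrane SNARE proteins pair, a step that Sec1/Munc18 proteins control. Sensory cilia of worm neurons are built by intraflagellar transport, in which protein trains carry cargo along the axoneme. Neuropeptides are short signalling peptides cut from precursors, glutathione S-transferases form a large enzyme family that includes detoxification enzymes, and heterochronic genes set which cell divisions belong to which larval stage. Worm genes are closely packed, and many start back to back from a short shared stretch, so a peak at one promoter often lies in the promoter of a second gene as well.

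All 7 members had the summit of a thresholded peak in the promoter window, here the 1000 bp before the annotated 5' end and the first 200 bp after it. Many worm transcripts are trans-spliced, so an annotated 5' end can lie downstream of where transcription begins. Since that is how they were picked, the count itself shows nothing; the same held for 2356 of 19973 protein-coding genes, or 11.8%. The signal value is the number that the authors' peak caller gave each entry, and its scale is not stated. In the pooled thresholded list of 2183 peaks it ran from 21.7 to 1543, and at the members from 106.6 at unc-18 to 606 at gst-43. The median over all bound genes was 58.7, with quartiles of 33.9 and 188. The peaks fell into 2 kinds by position: those of snb-1 and unc-18 lay in the window of no other protein-coding gene, while those of the remaining 5 members also lay in the window of a gene that starts in the opposite direction. At dyf-2 and lin-46 that other gene was far nearer to the summit.

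**Figure D1:**
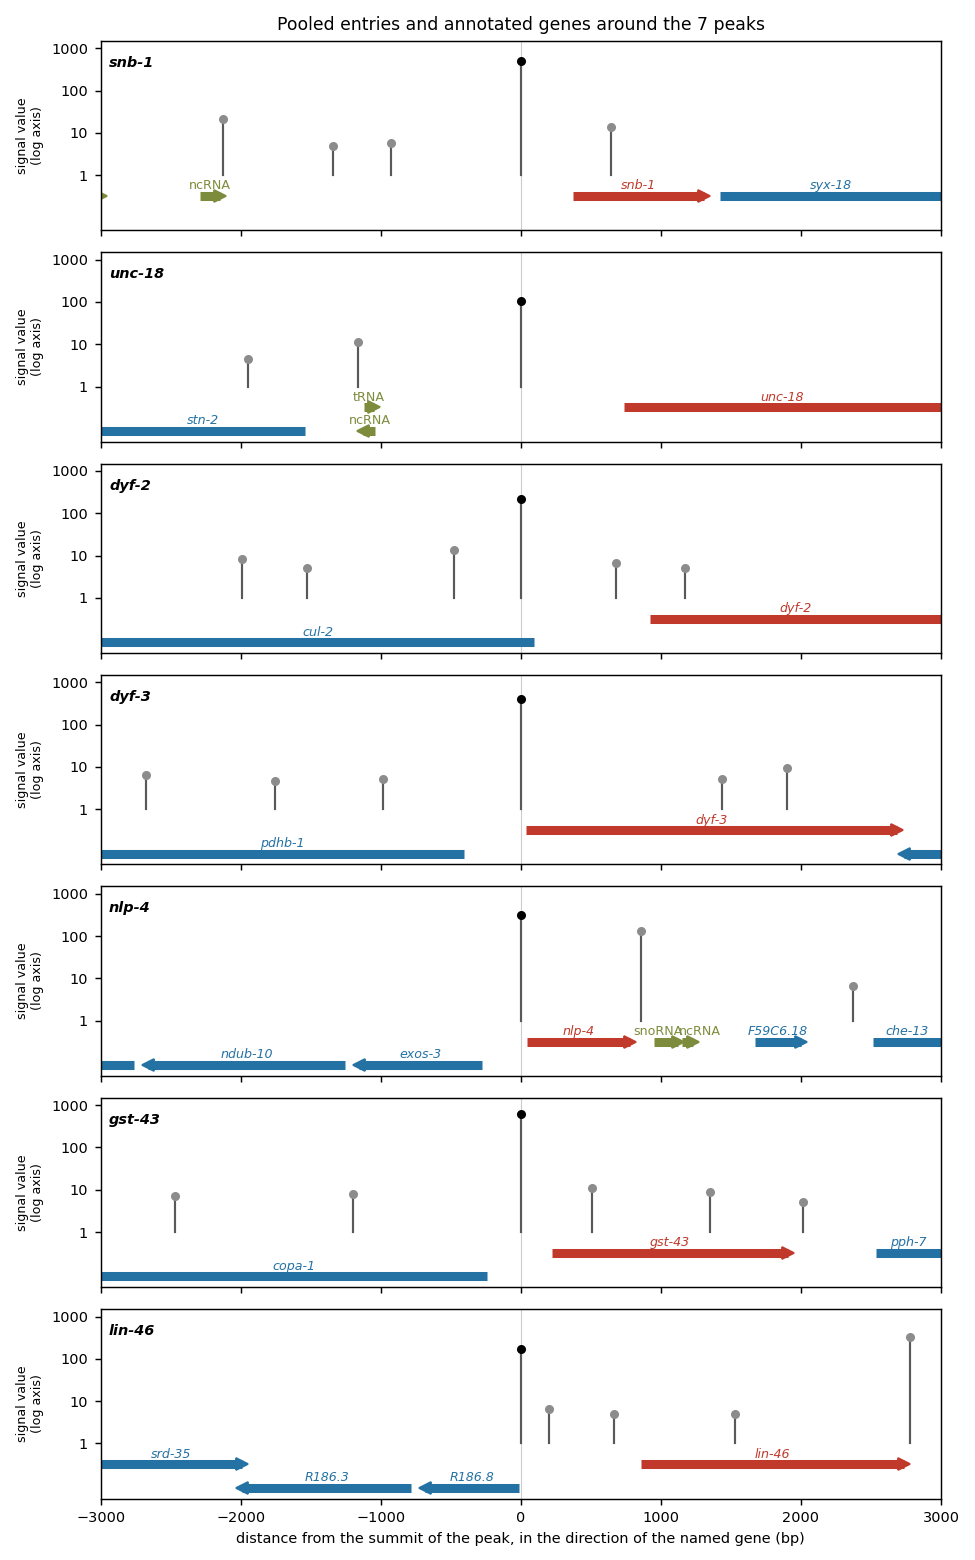
Pooled entries (points on stems, signal value on a log axis) and annotated genes around each member's summit, which is at 0 and drawn in black; the horizontal axis is distance in bp and points in the direction of the member. Members are red, other protein-coding genes blue and non-coding genes green, with arrowheads at gene ends; the summit sits inside the start of cul-2 in the dyf-2 panel and 11 bp from the start of R186.8 in the lin-46 panel.

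The synaptic genes were the members whose peaks had no other protein-coding gene in reach. snb-1 encodes synaptobrevin, the SNARE protein of the synaptic vesicle, and lies at V:6655562-6656501 on the minus strand. Its peak spanned 6656757 to 6656985 with the summit at 6656872, 371 bp upstream of the 5' end, in intergenic sequence. The signal value was 502 in the pooled list, 292 in replicate 1 and 212 in replicate 2. Its rank was 103 in the pooled list, 112 in replicate 1 and 86 in replicate 2, so it stood among the stronger peaks in each. No protein-coding 5' end other than its own lay within 1000 bp of the summit. The next gene on the same strand, syx-18, annotated as a t-SNARE protein, begins 112 bp after the end of snb-1, and its own 5' end was 1423 bp from the summit, outside its window.

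unc-18 encodes a Sec1/Munc18 protein that binds syntaxin in vesicle release and lies at X:7682896-7686037 on the plus strand. The peak spanned 7682081 to 7682190, and its summit at 7682158 was 738 bp upstream of the 5' end. This was the weakest of the 7, with a signal value of 106.6 (rank 593) in the pooled list, 56.9 (rank 652) in replicate 1 and 46.9 (rank 556) in replicate 2. The nearest other protein-coding start, that of stn-2 on the opposite strand, was 1539 bp away. A tRNA gene and a non-coding RNA gene began 1118 and 1038 bp away, and the strongest other pooled entry within 2000 bp had a signal value of 11.1. The 100 bp centred on both summits are shown because these are the peaks with no second promoter. They are written on the plus strand of WBcel235 (the ce11 assembly), from 6656822 to 6656921 for snb-1 and from 7682108 to 7682207 for unc-18, with the 6-base sequence ACGCGC, or its reverse complement GCGCGT, in capitals.
snb-1: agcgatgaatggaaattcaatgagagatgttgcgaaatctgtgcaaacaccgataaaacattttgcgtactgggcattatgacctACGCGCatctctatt
unc-18: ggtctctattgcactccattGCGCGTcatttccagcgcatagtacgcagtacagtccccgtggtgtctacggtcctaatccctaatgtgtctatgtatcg

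The cilium genes carried peaks at unlike distances from their starts. dyf-3 encodes the worm homologue of clusterin-associated protein 1, an intraflagellar transport protein, and lies at IV:3396581-3399231 on the minus strand. Its peak spanned 3399160 to 3399390 and had the summit at 3399269, 38 bp upstream of the 5' end. The signal value was 399 (rank 181) in the pooled list, 242 (rank 175) in replicate 1 and 155 (rank 195) in replicate 2. The window of pdhb-1, which starts in the other direction and encodes the beta subunit of mitochondrial pyruvate dehydrogenase E1, also held this summit, at 403 bp from its 5' end. dyf-3 was thus the nearer gene, and the 2 starts were 441 bp apart.

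dyf-2 encodes a WD-repeat protein of intraflagellar transport and lies at III:13674879-13686445 on the minus strand. Its peak, at 13687259 to 13687461, had the summit at 13687367, which was 922 bp upstream of the dyf-2 5' end and at -828 bp from the start that RefSeq gives. The signal value was 219 (rank 414) in the pooled list, 113 (rank 443) in replicate 1 and 103.6 (rank 357) in replicate 2. The summit lay inside the oppositely directed gene cul-2, in its annotated 5' UTR, 98 bp after its 5' end and at -284 bp from its outermost coding start. cul-2 encodes a cullin, the scaffold of a class of ubiquitin ligases. Between the summit and the dyf-2 start the pooled list held 1 other entry, 678 bp from the summit, with a signal value of 6.51.

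The developmental timing gene lin-46 showed the same arrangement. It encodes a protein with a MoeA-related domain, belongs to the heterochronic pathway and lies at V:12968855-12970730 on the plus strand. The peak spanned 12967901 to 12968119 with the summit at 12967993, 862 bp upstream of lin-46. The signal value was 170 (rank 474) in the pooled list, 112 (rank 448) in replicate 1 and 62.1 (rank 486) in replicate 2. The summit was 11 bp upstream of R186.8, which starts in the other direction and which RefSeq annotates as a mitochondrial protein of the large ribosomal subunit. The window of R186.3, on the same strand as R186.8 and annotated as an ADP-ribosylation factor-related protein, held it too, at 783 bp. A second and stronger thresholded peak (signal value 323, rank 274) had its summit 39 bp beyond the other end of lin-46, 341 bp upstream of pnn-1, a pinin-like gene on the same strand.

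**Figure D2:**
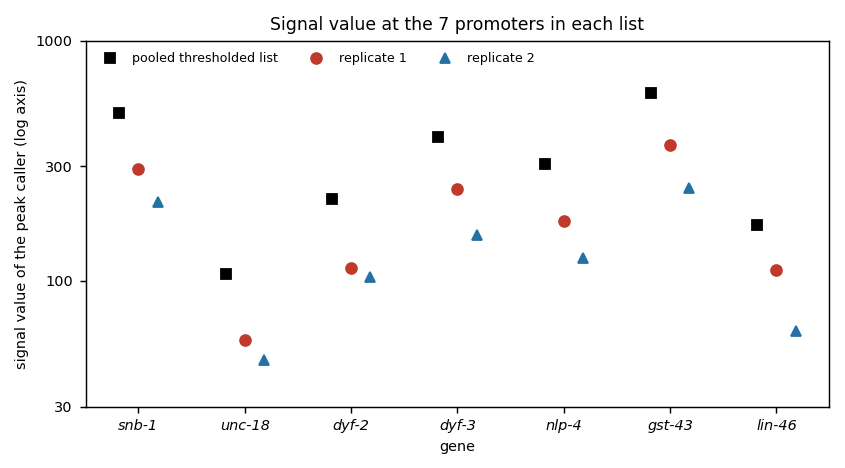
Signal value (log axis) of the peak at each member in the pooled thresholded list (black squares), replicate 1 (red circles) and replicate 2 (blue triangles). The lists are not on a known common scale, so points are to be compared within a list, and gst-43 is highest and unc-18 lowest in each list.

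Most of the summits shared a short run of bases. The longest run found in the 100 bp at 4 or more member summits, on either strand, was GCAAACACCG (reverse complement CGGTGTTTGC), present at snb-1, dyf-3, nlp-4 and lin-46. It was picked from these sequences and is therefore a description. Among the 2176 thresholded peaks of no member, 145 (6.66%) held it within 100 bp of sequence centred on the summit, against 3 of the stretches centred 200 bp to either side (0.0689%) and 74 of 27802 weaker pooled entries (0.266%). It occurred in 1.46% of all 19973 promoter windows, which are longer (1201 bp each). The centre of the run was 3 to 18 bp from the member summits and a median of 10 bp from the other summits that held it. Those other peaks had a median signal value of 326, against 45.1 for thresholded peaks without the run. The members were picked for strong peaks, and the run was not counted over other peaks of like strength. Its presence at 4 members therefore cannot be called a trait of these genes. The sites are set out on the plus strand with the run in capitals, at V:6656854-6656883 for snb-1, IV:3399265-3399294 for dyf-3 and V:12967960-12967989 for lin-46.
snb-1: cgaaatctgtGCAAACACCGataaaacatt
dyf-3: cgttttgtacGCAAACACCGcgacgccata
lin-46: tagagagtacGCAAACACCGtgtgtccgca

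At dyf-3 and lin-46 the base before the run was also a C. That longer form, CGCAAACACCG, was shared by dyf-3, nlp-4 and lin-46 and occurred at 84 other thresholded summits (3.86%). The shorter GCAAACAC, which lies within the run, was found at gst-43 too, and so at 5 of 7 members and at 335 other summits (15.4%). The 6-base sequence whose presence at the other summits most exceeded that in their flanks, in percentage points, was ACGCGC, at 22.8% against 1.42%; it was held by snb-1, unc-18 and lin-46. Of the 10 leading 6-base sequences, lin-46 held 7, snb-1 6, dyf-3 5, nlp-4 and gst-43 4 each and unc-18 3. dyf-2 held none, as did 517 of the other summits (23.8%), whose median was 2. Several of these sequences overlap each other, so the counts are not of separate sites. The counts were also not set against other peaks of like strength.

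gst-43 and nlp-4, both on chromosome I, each share a short stretch of upstream sequence with a gene that starts the other way. gst-43, named as a glutathione S-transferase, is annotated by RefSeq as maleylacetoacetate isomerase, an enzyme of tyrosine breakdown. It lies at 2901325 to 2903006 on the plus strand, and the peak at 2900985 to 2901218 had its summit at 2901101, 224 bp upstream. Its signal value was the highest of the 7, at 606 (rank 54) in the pooled list, 370 (rank 51) in replicate 1 and 244 (rank 54) in replicate 2. The summit lay between gst-43 and copa-1, which encodes the alpha subunit of the COPI vesicle coat and starts 241 bp away in the other direction. The replicate summits were 12 bp apart, and gst-43 was the nearer start with either.

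nlp-4 was named as a neuropeptide-like protein gene, while RefSeq lists its product as a transthyretin-like family protein. It lies at 10517321 to 10518055 on the minus strand. The peak at 10518001 to 10518215 had its summit at 10518103, 48 bp upstream of nlp-4 and 276 bp upstream of exos-3, which runs the other way and encodes a subunit of the RNA exosome. The signal value was 307 (rank 293) in the pooled list, 178 (rank 307) in replicate 1 and 125 (rank 282) in replicate 2. A second thresholded peak (signal value 129 pooled, 77.9 in replicate 1 and 48.5 in replicate 2; rank 532, 530 and 546) had its summit 76 bp past the far end of nlp-4. The nearest annotated start there was that of the snoRNA gene F59C6.15, 95 bp away. snoRNAs guide chemical modification of other RNAs. The summit of the second peak also lay in the promoter window of F59C6.18, a gene on the same strand that RefSeq annotates as an FMRF-like peptide.

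Set against all bound promoters, the members did not share a single arrangement. The strongest peak lay in windows on both strands at 5 of 7 members and at 1344 of the 2356 bound genes (57.05%). Members that owned the nearest protein-coding start were also 5 of 7; over all genes 1621 were bound with that added condition, or 8.12% of 19973, which is 68.8% of the bound genes. A further feature, a summit more than 500 bp upstream, was seen at 3 members, unc-18, dyf-2 and lin-46, and at 16.6% of bound genes. The median position over bound genes was -217 bp. The share of G and C in the 100 bp at the member summits ran from 41% at snb-1 to 57% at dyf-2, with a median of 47% over promoter peaks (quartiles 42 and 52). No test was made of these comparisons, since the members were picked with their peaks in view.

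The replicates placed the member peaks at nearly the same bases. The summits of replicates 1 and 2 were 0 bp apart at dyf-2, 1 bp at snb-1, dyf-3 and lin-46, 3 bp at nlp-4, 7 bp at unc-18 and 12 bp at gst-43. Over the 2159 thresholded peaks matched in each replicate the median was 15 bp, with quartiles of 6 and 32.5. Ranks differed between replicates by 3 at gst-43 to 96 at unc-18, against a median of 185. Strong peaks were chosen here, so their closeness in rank is not particular to them. The summit shift was not taken over other peaks of like strength, so close summits cannot be called a trait of the members. The strongest other pooled entry within 2000 bp of a member summit had a signal value of 129 at nlp-4, that of the peak beside the snoRNA gene. At the remaining members it ran from 6.66 at lin-46 to 13.8 at snb-1, below the lowest thresholded value of 21.7.

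**Figure D3:**
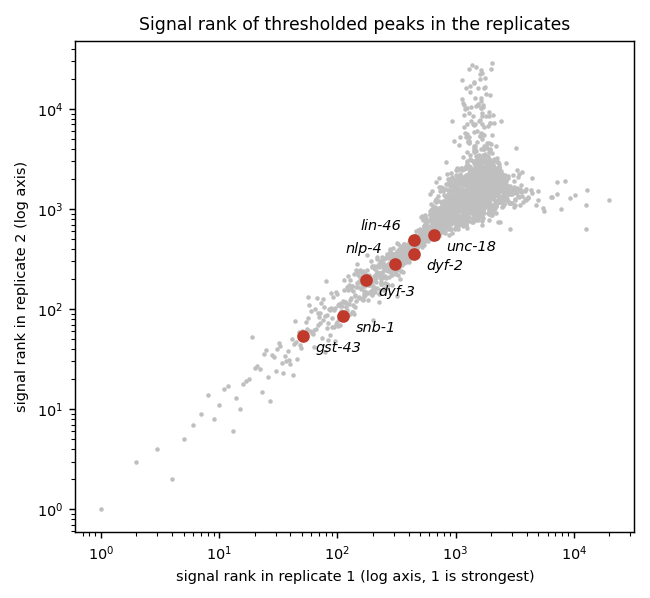
Signal rank of the 2159 thresholded peaks with a match in each replicate (grey), in replicate 1 and in replicate 2, on log axes where 1 is the strongest; members are red. The members lie along the diagonal between ranks 51 and 652 in replicate 1.

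Over the classes to which the members belong, the share of bound genes ran from 1.35% of neuropeptide and insulin genes to 16% of heterochronic genes, against the 11.8% of all protein-coding genes. The members were picked as bound and are counted in these shares, here and below, which raises them. Bound non-members were 7 synaptic transmission, 4 cilium, 1 neuropeptide or insulin, 1 glutathione S-transferase and 3 heterochronic genes. Across the 5 lists, 23 of 379 genes were bound (6.07%), a share that the large neuropeptide and insulin list lowers, and 16 of the 23 were not members. The median signal value of these 16 was 45.4, and that most were weaker than the members follows from how the members were picked. The gene apa-2, an adaptor subunit of clathrin-mediated endocytosis, exceeded the weakest member without being picked, with 396 pooled, 240 in replicate 1 and 153 in replicate 2 and a summit 645 bp upstream that no other window held. The next below unc-18 was the endocytic gene ehs-1, at 96.2.

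Among 79 synaptic transmission genes 9 were bound (11.4%, median signal value 57.4), a share near that of all genes with this window; with 500 bp upstream 3 were (3.797%, against 9.94% of all genes). They included tom-1 (57.4), which encodes tomosyn, an inhibitor of SNARE pairing. Among 78 cilium genes 6 were bound (7.69%, against 11.8% of all genes, median signal value 61.9). Of these, tmem-107 (77.9), a transition zone gene, shared its peak with the ribosomal protein gene rps-26. The ift-43 peak (45.9) was shared with the Mediator gene mdt-26, whose start was nearer. The hyls-1 summit (38.9) also lay in the window of hpo-9, with hyls-1 the nearer start. Of the 78 cilium genes, 3 owned the nearest start (3.85%, against 8.12% of all genes).

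Among 148 neuropeptide and insulin genes 2 were bound (1.35%), nlp-4 and the insulin gene ins-39 (26.2). The list goes by gene symbol and so leaves out F59C6.18, annotated by RefSeq as an FMRF-like peptide. Its window held the peak past the far end of nlp-4 (129). Among 49 glutathione S-transferase genes 2 were bound (4.08%), gst-43 and gst-27 (44.9). The genes ins-39 and gst-27 each owned the nearest start. Among 25 heterochronic genes 4 were bound (16%, median 74.3). Beside lin-46 these were nhl-2 (86.1), a cofactor of microRNA complexes, puf-9 (62.4), an RNA-binding protein gene, and lin-66 (35.4). The nhl-2 summit lay nearer to the start of tag-340, and 2 of the 25 owned the nearest start (8%, against 8.12% of all genes).

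The pooled relaxed list, where peaks and background stand together, had an entry with its summit in the window of 149 of the 379 genes, against 8186 of all 19973 (41%). By list these were 39 of 79 synaptic transmission genes, 34 of 78 cilium genes, 32 of 148 neuropeptide and insulin genes, 27 of 49 glutathione S-transferase genes and 17 of 25 heterochronic genes.

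**Figure D4:**
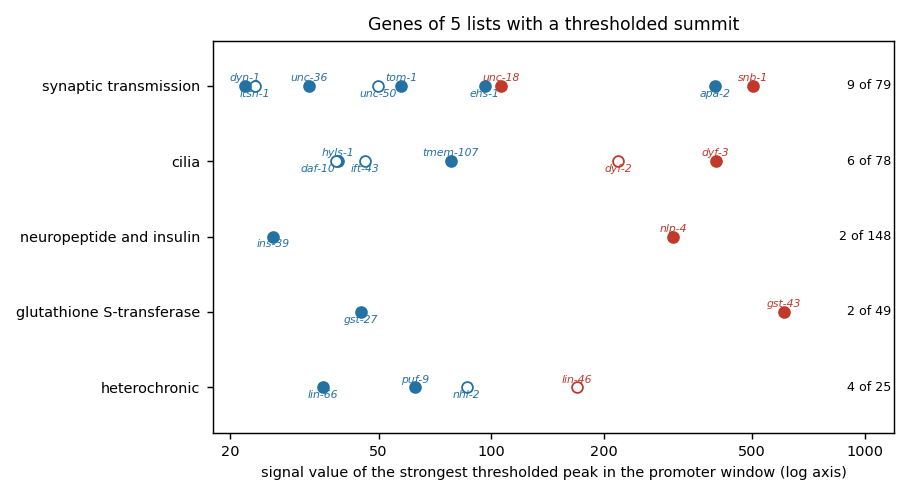
Signal value (log axis) of the strongest thresholded peak in the promoter window for the bound genes of 5 lists, with members in red and other genes in blue; filled points own the protein-coding start nearest to the summit, open points do not. The numbers at the right are bound genes of all genes in the list. By share they run from 2 of 148 neuropeptide and insulin genes to 4 of 25 heterochronic genes.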

How the data were processed

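A relaxed peak list per replicate came from its alignments and a control, per the deposited notes. The pooled relaxed list used both replicates, and the thresholded list (optimal peaks by irreproducible discovery rate) was derived from all 3. For the aligner, the peak caller and the threshold, names and versions were not given in the sources used. The authors deposited a signal value for each entry (column 7), which served to describe, order or filter within its list and for no test. Read depth is unknown, so no interval was formed.

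Summits are column 2 plus column 10, counted from 1, on ce11, whose coordinates are those of WBcel235. Genes came from Ensembl release 115, and products and further 5' ends from RefSeq. Replicate entries were matched by at least 1 bp of overlap, taking the strongest. The ce10 lists were not used. The members and gene lists were chosen with earlier results of these data known, and membership in a list rests on gene symbols (4 symbols matched no gene). Named were the members, the genes beside their peaks and up to 5 bound genes per list by signal value. The genes mdt-26, rps-26, hpo-9, tag-340, syx-18 and pnn-1 and the shared runs were added after their values were seen. No test was made. Alternatives were other windows, 5' ends, overlap rules, the stronger 1091 peaks and single replicates. Python 3.11.15 and NumPy 2.4.6 were used, and the assignment of peaks to genes was tested on simulated data.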

Additional observations from a re-analysis of the deposited data

How the results depend on the processing

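All 7 members kept a thresholded summit in the window under 6 of 8 alternatives: a 2000 bp upstream window, any transcript's 5' end, overlap of the whole peak, the stronger 1091 peaks, and either replicate alone with its 2183 strongest entries. The wider window, the added 5' ends and the overlap rule can only add genes, so no member could be lost. The members were picked for strong peaks, so keeping them among the stronger peaks or in a single replicate follows from that choice. With a 500 bp upstream window 4 remained, without unc-18, dyf-2 and lin-46 (all protein-coding genes 9.94%), and with the nearest start 5, without dyf-2 and lin-46 (8.12%). The 5 members that own the nearest start stayed 5 with every biotype, every transcript, RefSeq starts (added after seeing the data) or either replicate's summits. Bound genes fell to 3 of 79 for synaptic transmission, 1 of 148 for neuropeptides and insulins and 2 of 25 for heterochronic genes with the 500 bp window, or 3.797%, 0.676% and 8%, against 9.94%. The cilium count was 12 with the 2000 bp window (15.4%, against 14.5%) and 3 with the nearest start or the stronger 1091 peaks (3.85%, against 8.12% and 6.83%). With those stronger peaks 1 neuropeptide or insulin gene (0.676%) and 1 glutathione S-transferase gene (2.04%) were bound, and with the nearest start 2 heterochronic genes (8%, against 8.12%). The heterochronic count was 6 of 25 with any transcript's 5' end (24%, against 12.3%) and 3 with the stronger 1091 peaks (12%, against 6.83%). It was 5 (20%) with the 2000 bp window (against 14.5%), with replicate 1 alone (against 11.7%) and with replicate 2 alone (against 11.3%). ACGCGC was within the central 50 bp at 1 member in place of 3; GCAAACACCG stayed at 4 members with 50 or 200 bp. No paired analysis was possible because there is 1 group. Depth is unknown, so weaker entries were not read as absence of binding.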

Other observations

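The run GCAAACACCG lay on the strand opposite to the nearest protein-coding gene at all 4 members that held it. Among 112 other promoter peaks with the run and a nearest start on 1 strand, it did so at 62 (55.4%). The run was picked from the members' own sequences, and a strand preference was not tested. The first base of the run was at -885 bp from the lin-46 start, inside the annotated 5' UTR of R186.8, and at -44 bp from the dyf-3 start.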
